A study of Homo sapiens with 48 samples.

Results

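The cadherins CDH1, CDH2, CDH6 and CDH16, the adhesion molecule EPCAM, the transcription factors SNAI2 and ZEB1, the filament gene VIM and the matrix gene FN1 were followed in HK-2, an immortalised human cell line derived from proximal tubule epithelium of the kidney. These are 9 of the 19775 genes that the platform annotation names alone on a probe set. Probe sets were taken where it gave 1 of these symbols and no other, which chose 26 of the 54675 on the array. Of these, 23 exceeded log2 4 in at least 3 arrays and entered the tests, and every gene kept at least 1. There were 48 arrays in 16 groups of 3, which the labels call biological replicates, and the groups fell into 3 sets with separate vehicle cells. In the first set, whose labels carry the words lab 3, cells received CsA or its vehicle for 12 h or 48 h. In the second, cells received Fk, Ra or a shared vehicle for 12 h or 48 h. In the third, cells received Nnm at a low or a high dose, or a shared vehicle, for 24 h or 48 h. All cells were plated a day before exposure and treated when nearly confluent, and the labels give no dose beyond low and high. What the short compound names stand for is not spelled out in them.

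Cadherins are transmembrane proteins that hold neighbouring cells together at adherens junctions through calcium-dependent binding outside the cell and catenins inside it. In epithelial-mesenchymal transition, cells lower E-cadherin and raise N-cadherin, vimentin and fibronectin, and transcription factors of the SNAI and ZEB families repress the E-cadherin gene through E-box motifs. The proximal tubule is unusual among epithelia in carrying N-cadherin and cadherin 6, so N-cadherin in tubule cells is not by itself a sign of a mesenchymal state.

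Values are deposited log2 expression levels, where a difference of 1 is a doubling of signal, and levels are not comparable between genes because probe sets differ in how strongly they bind. Each gene is described by its probe set of highest mean. Differences are given as the first group minus the second with their standard error (SE) from limma, and a gene counts as called where its p, adjusted by Benjamini-Hochberg across the 11356 genes tested, lies under 0.05. With 3 arrays a group the number of arrays limits the precision, and p-values measure only the spread between these arrays. In such bulk samples fewer cells of a type and less RNA per cell cannot be told apart.

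Some arrays stood apart. Ra 48 h replicate 2 had the lowest upper quartile over all probe sets, 6.20, followed by Fk 12 h replicate 3 with 6.85, and the others reached up to 7.24. Of the 10 proximal tubule markers 2 exceeded log2 4 in at least 3 arrays: the tubule transcription factor PAX8 lay between 9.95 and 11.65 in all 48, and GGT1 passed in 3 arrays. ANPEP, LRP2, CUBN and AQP1, which define the differentiated tubule, stayed below 4 in every array. Among fibroblast markers DCN and LUM exceeded 4 in all 48 arrays, while PDGFRB, PDGFRA, COL3A1 and THY1 did in none, and 0 of 4 leukocyte markers and 0 of 4 markers of other nephron segments passed. Of 5 endothelial markers PECAM1 exceeded 4 in 41 arrays, while CDH5, VWF, KDR and TEK did in none. Summed on the linear scale over the 6 fibroblast markers, the log2 level ran from 10.14 to 11.09 in Ra 48 h arrays and from 9.14 to 10.82 in their vehicle, and their part in the results was not tested.

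E-cadherin, CDH1, the main adhesion molecule of most epithelia, had the widest range of the genes between arrays, from 2.94 to 9.66. The group means of CDH1 spanned 2.66, less than those of CDH6 (3.29), SNAI2 (4.19) and CDH16 (4.67). Its highest group mean was 8.36 ± 2.11 (SD, n = 3) in CsA 48 h cells and its lowest was 5.70 ± 0.98 in Ra 48 h cells. N-cadherin, CDH2, was steadier, with group means between 9.12 ± 0.34 in CsA 48 h cells and 10.29 ± 0.37 in Nnm high 48 h cells. CDH6, cadherin 6 of the fetal and adult proximal tubule, had group means between 10.45 ± 0.83 in CsA 48 h cells and 13.74 ± 0.18 in Nnm low 48 h cells. CDH16, the kidney-specific cadherin, was low in the Fk and Ra set, where arrays lay between 4.60 and 7.19, against 5.10 to 8.77 in the CsA set and 7.03 to 10.63 in the Nnm set. EPCAM, an epithelial surface glycoprotein, was high throughout, between 11.74 and 13.64.

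SNAI2, also called Slug, a repressor of E-cadherin, was above the low level in 1 set: its arrays lay between 2.81 and 7.83 in the Fk and Ra set, against 2.37 to 3.09 over the other 30 arrays. It exceeded log2 4 in 14 arrays. ZEB1, another repressor of E-cadherin, was measured in all 48 arrays, between 6.59 and 9.14. Vimentin, VIM, the intermediate filament of mesenchymal cells, lay between 13.72 and 14.81, and fibronectin, FN1, a matrix glycoprotein, between 14.53 and 15.40. These are near the top of the scale, which ran up to 16.11 over all probe sets. FN1 has 7 probe sets, and its results here are of 211719_x_at alone. Probe sets 210495_x_at, 212464_s_at and 216442_x_at lay at similar levels. The others ranged more widely: 214701_s_at lay between 10.78 and 14.17, 214702_at between 4.60 and 8.71 and 1558199_at between 3.07 and 6.99. Their differences are not given here. Differences in level between sets are descriptions, since each set had its own vehicle cells and no test was made between sets.

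When the 16 group means of a gene were put in order, few neighbours differed by more than both groups' SDs. This held for 0 of 15 neighbouring pairs for CDH1, CDH16, EPCAM, ZEB1 and VIM, for 1 pair for CDH2, FN1 and SNAI2, and for 3 pairs for CDH6. The single step of SNAI2, 1.24 between Ra 48 h and Nnm high 24 h, separated the Fk and Ra set from the other sets. The steps of CDH6 lay below Nnm low 48 h cells and on both sides of the Nnm vehicle cells at 48 h.

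**Figure D1:**
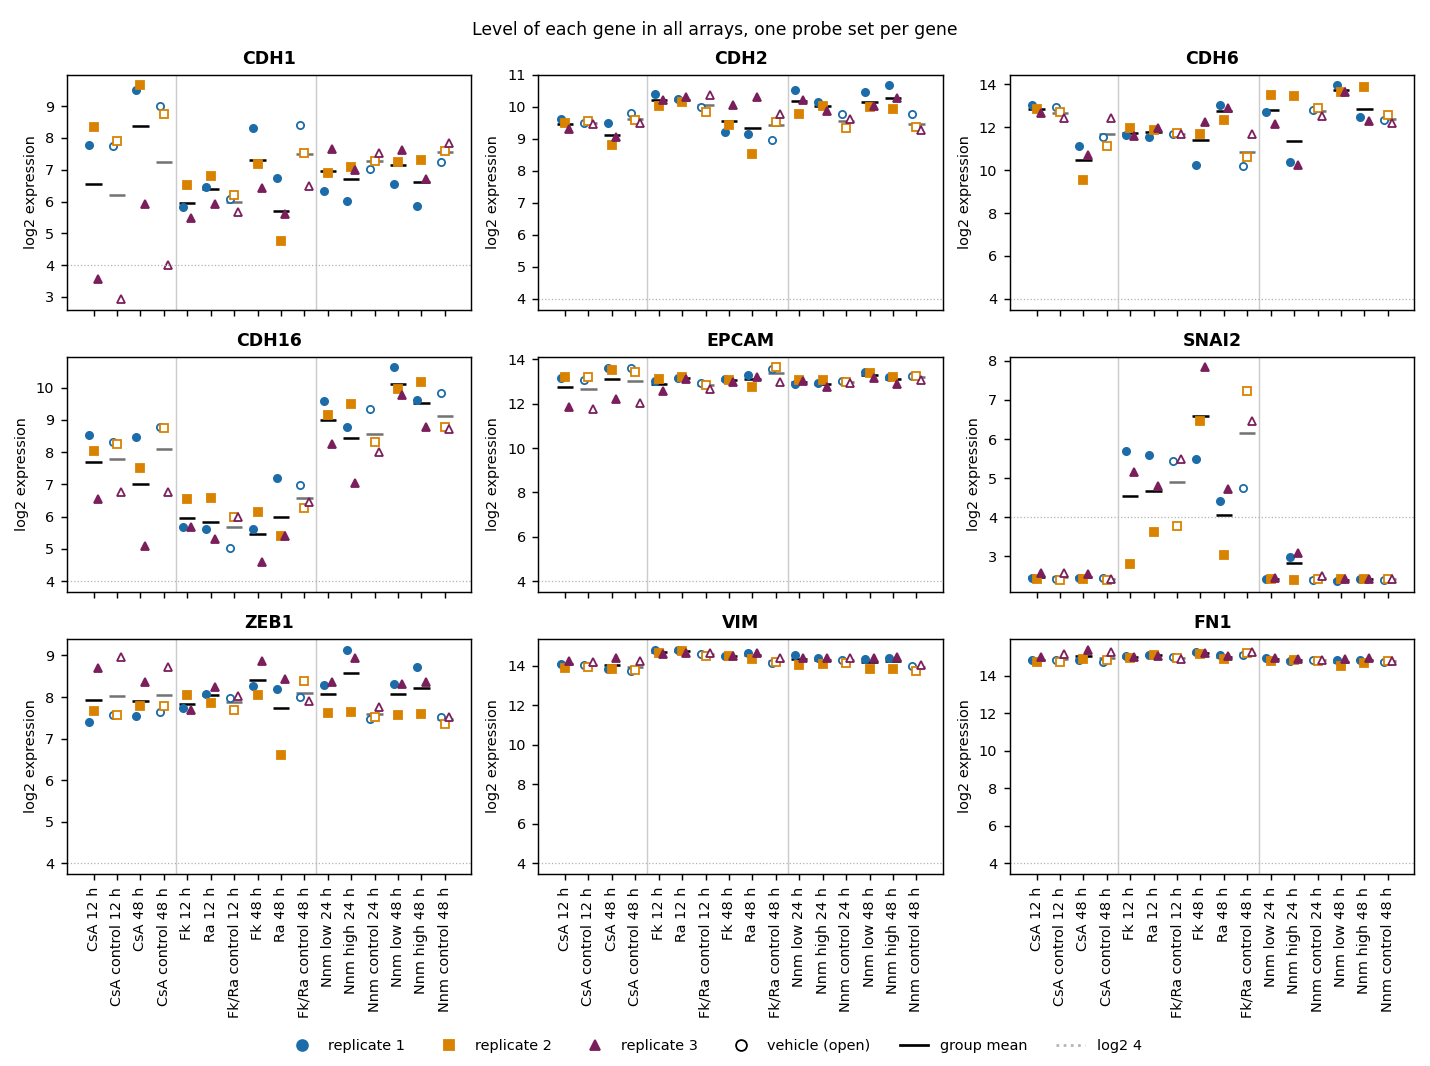
Log2 level of each gene in all 48 arrays, 1 panel per gene, with treated groups left of their vehicle within each set and time. Filled symbols are treated arrays, open symbols vehicle arrays, shapes mark the replicate number, short lines are group means and the dotted line is log2 4. CDH1 replicate 3 lies far below the others in the CsA set, and SNAI2 rises above 4 in the Fk and Ra set alone.

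The promoter windows of CDH2, ZEB1 and VIM are shown because these genes were higher together in Nnm high 48 h cells once the replicate number was taken into account, as described further on. Windows run from 250 bases before to 50 bases after the transcript start on the gene's strand and come from RefSeq, build GRCh38.p14. CDH2 lies at chr18:28177081-28177380 on the minus strand, ZEB1 at chr10:31318167-31318466 on the plus strand and VIM at chr10:17227991-17228290 on the plus strand. The table held 2 starts for CDH2, 7 for ZEB1 and 1 for VIM, and the first of each is printed. Capitals mark the E-box CAGGTG, searched on both strands, where it reads CACCTG on the other, and the motif overlaps no other motif searched.
CDH2: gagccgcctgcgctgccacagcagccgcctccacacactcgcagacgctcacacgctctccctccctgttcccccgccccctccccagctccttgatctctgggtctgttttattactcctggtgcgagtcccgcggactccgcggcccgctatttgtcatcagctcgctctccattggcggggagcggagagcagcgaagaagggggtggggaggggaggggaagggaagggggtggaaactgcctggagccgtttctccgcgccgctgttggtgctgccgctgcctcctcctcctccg
ZEB1: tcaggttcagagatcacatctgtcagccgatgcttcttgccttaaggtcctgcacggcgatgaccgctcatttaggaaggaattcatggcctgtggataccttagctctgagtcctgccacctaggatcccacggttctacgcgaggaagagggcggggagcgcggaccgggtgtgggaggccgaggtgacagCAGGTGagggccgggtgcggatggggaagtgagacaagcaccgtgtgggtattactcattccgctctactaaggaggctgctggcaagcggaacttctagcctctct
VIM: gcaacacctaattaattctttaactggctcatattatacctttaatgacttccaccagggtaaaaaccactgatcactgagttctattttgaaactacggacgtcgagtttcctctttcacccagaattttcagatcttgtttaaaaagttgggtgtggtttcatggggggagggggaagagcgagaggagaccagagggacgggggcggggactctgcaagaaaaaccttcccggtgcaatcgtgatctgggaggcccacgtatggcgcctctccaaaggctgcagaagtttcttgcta
The ZEB1 window holds 1 such E-box, which begins at position -57 from the start. None is in the CDH2 and VIM windows printed, and 2 of the 7 ZEB1 windows have one. Of all 35116 windows, 7231 (20.6%) hold the motif, so these matches are descriptions and say nothing of binding. FN1 was the remaining gene with a window, which held none, and CDH1, CDH6, CDH16, EPCAM and SNAI2 are named only.

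Replicate number 3 of the CsA set differed from numbers 1 and 2 in treated and vehicle cells alike. CDH1 stood at 3.57, 2.94, 5.93 and 4.0 in number 3 of the CsA 12 h, vehicle 12 h, CsA 48 h and vehicle 48 h groups, against 7.76 to 9.66 in the other 8 arrays. EPCAM and CDH16 were also lower in all 4 arrays of number 3 than in any array of numbers 1 and 2, and ZEB1, VIM and FN1 were higher in all 4. EPCAM lay between 11.74 and 12.21 in number 3 and between 13.06 and 13.61 in the others, and ZEB1 between 8.36 and 8.95 in number 3 and between 7.40 and 7.79 in the others. These 6 of 9 genes did not overlap, where 10.8% of the genes tested did not. CDH2 and CDH6 overlapped between the numbers. SNAI2 was at its low level in the set. For Nnm numbers 1, 2 and 3, 0 of 9 genes stood apart in this way, against 0.299%, 2.25% and 0.0704% of all genes. What number 3 of the CsA set shares, such as a culture or a day, is not given in the labels.

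**Figure D2:**
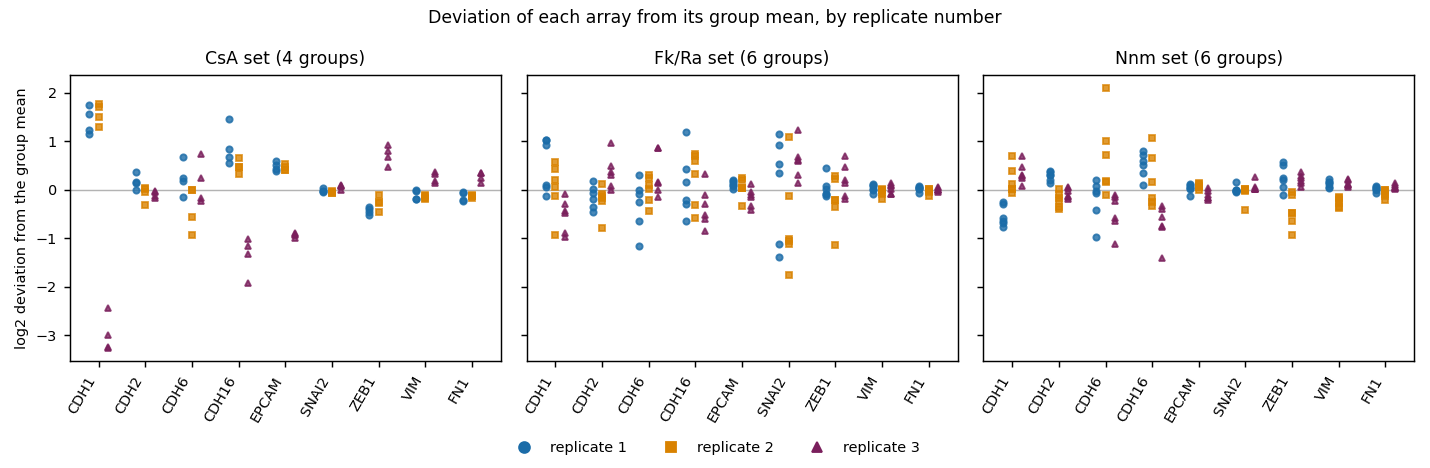
Log2 deviation of each array from its group mean, by gene, in the 3 sets, with replicate numbers 1, 2 and 3 as separate symbols. In the CsA set number 3 lies below the others for CDH1, CDH16 and EPCAM and above them for ZEB1, VIM and FN1.

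Over the 10 treatment comparisons, 3 of 90 gene tests passed, with 9 at an unadjusted p under 0.05. Ra gave 2 of the 3 calls and Nnm the third. Depending on the comparison, limma called between 0% and 23.1% of all genes. Between 36 and 4045 of the 11356 genes had an unadjusted p under 0.05 by limma. With the replicate number as a block 13 of 90 passed, where between 0.00881% and 33.7% of all genes were called. The plot of treatment differences shows all 90.

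**Figure D3:**
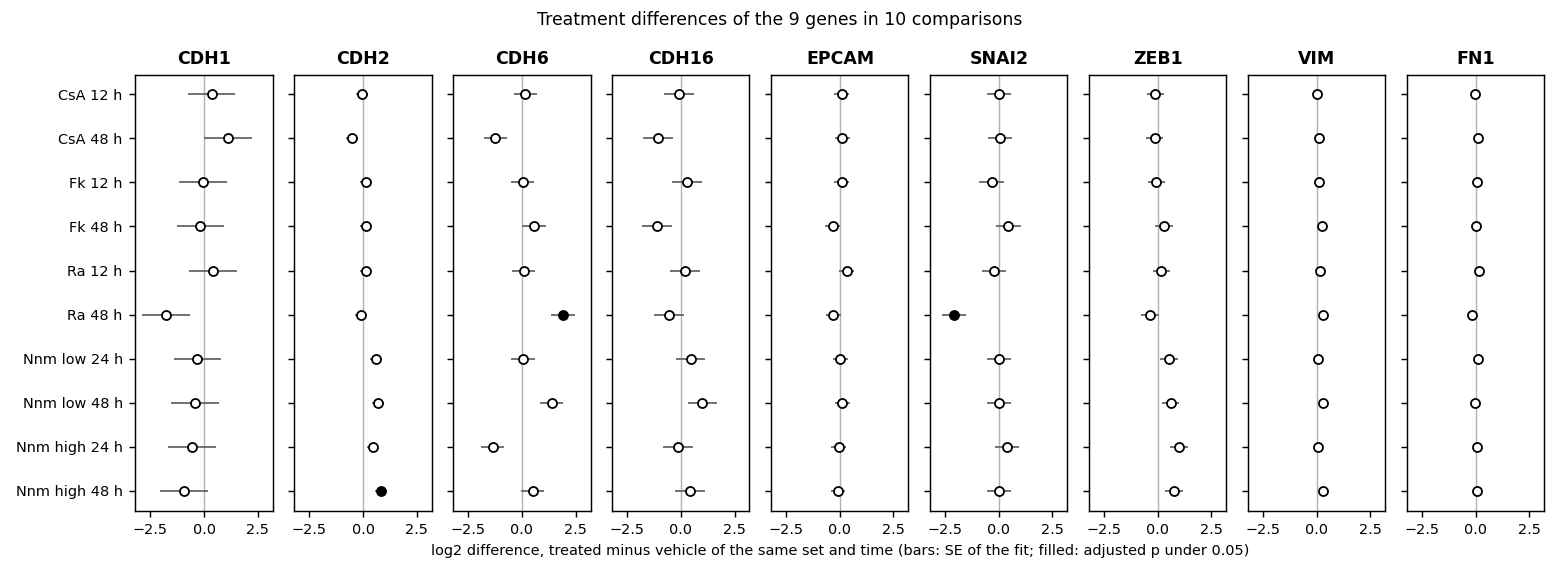
Log2 difference of each gene, treated minus vehicle of its set and time, with 1 panel per gene and 1 line per treatment. Bars are the SE of the fit over all 48 arrays, without the replicate number as a block, and filled points passed the adjusted p of 0.05. The 3 filled points are CDH6 and SNAI2 in Ra 48 h cells and CDH2 in Nnm high 48 h cells.

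In cells given Ra for 48 h, CDH6 rose and SNAI2 fell. These 2 of the 9 genes were called, against 18.5% of all genes. CDH6 stood at 13.04, 12.31 and 12.87 in Ra 48 h cells, against 10.19, 10.60 and 11.68 in their vehicle cells, so that every treated array was above every vehicle array. CDH6, SNAI2 and FN1 were the 3 of 9 genes whose arrays did not overlap, against 22.3% of all genes. The CDH6 difference was 1.91 ± 0.55 (SE; limma, adjusted p = 0.0137). All 6 CDH6 probe sets were higher, by 1.23 to 1.91, of which 3 passed on their own, against 16.3% of all probe sets. SNAI2 stood at 4.41, 3.04 and 4.73 in Ra 48 h cells, against 4.76, 7.23 and 6.46 in vehicle cells, again without overlap. Its difference was -2.09 ± 0.56 (limma, adjusted p = 0.00928). Without Ra 48 h replicate 2, the array of lowest upper quartile, SNAI2 differed by -1.58 and missed the threshold (adjusted p = 0.105). CDH6 differed by 2.13 without that array (adjusted p = 0.0314). It missed the threshold without vehicle replicate 1 (1.59, adjusted p = 0.0998) or vehicle replicate 2 (1.80, adjusted p = 0.0606), and SNAI2 missed it without vehicle replicate 2 (-1.55, adjusted p = 0.0959). SNAI2 lies at its low level in the other sets, and in the fit of the Fk and Ra set alone its SE was 0.85 and the call was lost (adjusted p = 0.12).

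The other 7 genes were not called at 48 h of Ra. CDH1 stood at 6.73, 4.77 and 5.60 in Ra 48 h cells, against 8.41, 7.54 and 6.50 in vehicle cells, with overlap. The difference of -1.78 ± 1.11 had an adjusted p of 0.277, and the SE is the spread of CDH1 over all arrays, including those of CsA number 3. Without number 3 of every set CDH1 differed by -2.22 ± 0.55 (adjusted p = 0.0093) and EPCAM by -0.57 (adjusted p = 0.0149). This fit was not planned, and fits without number 1 or 2 are not given here for these genes. It also left out number 3 of the Fk and Ra set, whose vehicle array was the lowest for CDH1, at 6.50. In the fit of the Fk and Ra set alone CDH1 had an adjusted p of 0.056. VIM differed by 0.29 (adjusted p = 0.252), FN1 by -0.20 (adjusted p = 0.316) and ZEB1 by -0.36 (adjusted p = 0.601). The median difference over all genes was -0.18 in this comparison. When arrays were centred on the median of the genes tested, VIM passed at 0.54 (adjusted p = 0.0314), and CDH2 and FN1 changed sign, to 0.16 and 0.06, without a call.

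At 12 h limma called 0 of the 9 genes for Ra, against 0.0704% of all genes, and 0 for Fk, against 0% of all genes. At 48 h Fk called 0 of 9 and 0% of all genes. At an unadjusted p under 0.05, limma gave 0 of 9 in each of these 3 comparisons. CDH16 was lower in Fk 48 h cells, at 5.61, 6.14 and 4.60, against 6.98, 6.26 and 6.45 in vehicle cells. The arrays did not overlap, yet the difference of -1.11 ± 0.70 missed the test (limma, adjusted p = 1). VIM was the other of the 2 genes of Fk 48 h whose arrays did not overlap, against 10.1% of all genes. It stood at 14.47, 14.49 and 14.50 in Fk 48 h cells, against 14.13, 14.19 and 14.38 in vehicle cells. The change of the Ra effect between 48 h and 12 h gave 0 calls among the 9 genes, against 3.62% of all genes, with 2 at an unadjusted p under 0.05 by limma. These were CDH6, whose Ra effect was larger by 1.83 at 48 h (adjusted p = 0.168), and SNAI2, with -1.86 (adjusted p = 0.173).

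Fk and Ra were compared directly at 48 h, where they share a vehicle. SNAI2 was higher with Fk, at 5.48, 6.47 and 7.83, against 4.41, 3.04 and 4.73 with Ra. This difference of 2.53 ± 0.56 passed (limma, adjusted p = 0.00256) and was the 1 call among the 9 genes, against 17.3% of all genes. In the fit of this set alone it was lost (adjusted p = 0.0755). CDH6 was lower with Fk, at 10.23, 11.69 and 12.26, against 13.04, 12.31 and 12.87 with Ra. Its difference of -1.34 ± 0.55 missed the threshold (adjusted p = 0.0853). Arrays did not overlap for 3 of the 9 genes, SNAI2, CDH6 and FN1, against 21% of all genes. At 12 h the compounds gave 0 calls among the 9 genes, with 0 at an unadjusted p under 0.05, and 0.00881% of all genes.

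CsA called 0 of the 9 genes at 12 h, against 0% of all genes, and 0 at 48 h, against 1.02% of all genes. At an unadjusted p under 0.05 limma gave 0 genes at 12 h and 1 at 48 h. That gene was CDH6, at 11.13, 9.52 and 10.70 in CsA 48 h cells, against 11.54, 11.13 and 12.42 in vehicle cells, with overlap. Its difference was -1.25 ± 0.55 (adjusted p = 0.334). With the replicate number as a block 0 of the 9 genes were called, against 4.39% of all genes, with CDH6 at -1.25 ± 0.46 (adjusted p = 0.121) and CDH1 at 1.12 ± 0.35 (adjusted p = 0.062). Of the 4 genes at an unadjusted p under 0.05 in that limma fit, the other members were CDH2 and CDH16. Taken as its own probe set with the block, CDH6 probe set 214803_at fell by 2.24 (adjusted p = 0.0257) and 205533_s_at fell by 1.93 (adjusted p = 0.0497). The share of all probe sets called in that fit is not given here. Probe set 232631_at overlapped, at 5.29, 5.26 and 5.20 in CsA 48 h cells, against 5.20, 5.28 and 5.28 in vehicle cells. Arrays of 205533_s_at, 205532_s_at and 210601_at overlapped too. Their highest CsA 48 h arrays stood at 8.18, 11.19 and 9.85, against lowest vehicle arrays of 7.81, 10.91 and 9.34. CDH2 was lower in all 3 CsA 48 h arrays, at 9.48, 8.80 and 9.07, against 9.79, 9.59 and 9.50 in vehicle cells, a difference of -0.51 that missed the test (adjusted p = 0.499). It was the 1 of 9 genes whose arrays did not overlap, against 14.2% of all genes. The other CDH2 probe set, 203441_s_at, did overlap, at 7.73, 7.69 and 7.96, against 7.81, 7.76 and 8.04 in vehicle cells. CDH1 differed by 1.12 ± 1.11 in the same cells (adjusted p = 0.802). Number 3 is the low array of both groups of CDH1.

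The CsA and Ra effects on CDH6 differed at 48 h. The CsA difference minus the Ra difference was -3.16 ± 0.77 (limma, adjusted p = 0.00552). The 2 differences use separate vehicles. This was 1 call among the 9 genes, against 16.5% of all genes. All 6 CDH6 probe sets were lower in this comparison, and 5 of them passed on their own, against 14.8% of all probe sets. They were measured on the same arrays. The other members gave no call, and in the 13 comparisons of dose, compound and time effects together 2 of 117 tests passed, with 9 at an unadjusted p under 0.05. Across these comparisons limma called between 0% and 17.3% of all genes. Between 165 and 3560 of the 11356 genes had an unadjusted p under 0.05 by limma.

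With Nnm, N-cadherin rose at the high dose at 48 h. CDH2 stood at 10.68, 9.94 and 10.26 in Nnm high 48 h cells, against 9.77, 9.37 and 9.27 in vehicle cells, without overlap. The difference of 0.82 ± 0.28 passed (limma, adjusted p = 0.0399) and was the 1 call of the 9 genes, against 16.8% of all genes. It was lost with arrays centred on their median (adjusted p = 0.0523), with no filter on low values (adjusted p = 0.0659) and with the groups of the comparison alone (adjusted p = 0.0867). The summed log2 level of the 5 endothelial markers ran from 5.69 to 5.96 in Nnm high 48 h arrays and from 5.57 to 5.80 in Nnm low 48 h arrays, against 5.33 to 5.43 in vehicle arrays, with only PECAM1 of the 5 above log2 4 in any array, and its part in the result was not tested. By the probe set of highest mean, arrays did not overlap for 2 of 9 genes, CDH2 and ZEB1, against 36.1% of all genes. It was also lost without Nnm high 48 h replicate 1 (0.63, adjusted p = 0.249) or replicate 3 (0.84, adjusted p = 0.105), and without vehicle replicate 2 (0.77, adjusted p = 0.106) or replicate 3 (0.72, adjusted p = 0.143). CDH2 was higher by 0.69 in Nnm low 48 h cells (adjusted p = 0.149), by 0.60 in Nnm low 24 h cells (adjusted p = 0.182) and by 0.44 in Nnm high 24 h cells (adjusted p = 0.261). None of the 9 genes was called there, against 5.22%, 8.29% and 23.1% of all genes. At an unadjusted p under 0.05 limma gave 2 genes at Nnm low 48 h, 1 at Nnm low 24 h and 2 at Nnm high 24 h. By the same probe sets, CDH2, CDH6 and ZEB1 were the 3 of 9 genes that did not overlap at Nnm low 48 h, against 35% of all genes. The high and the low dose were also compared directly. Limma called 0 of 9 genes at 24 h, against 0.00881% of all genes, and 0 at 48 h, against 0.0176%, with 1 gene at 24 h and 0 at 48 h at an unadjusted p under 0.05. The 1 gene was CDH6, with a high minus low difference of -1.41 ± 0.55 (adjusted p = 0.616).

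In the Nnm set same-numbered arrays moved together, so the replicate number was also fitted as a block. With the block, CDH2 passed in Nnm low 24 h cells (adjusted p = 0.0443), where it was the 1 call of 9 genes, against 18% of all genes. It also passed in Nnm low 48 h cells (adjusted p = 0.0269), where 2 of 9 were called, against 13% of all genes, and in Nnm high 48 h cells (adjusted p = 0.00421). At Nnm high 24 h 2 of 9 genes were called, ZEB1 and CDH6, against 33.7% of all genes. ZEB1 rose by 0.99 in Nnm high 24 h cells (adjusted p = 0.00732) and by 0.75 in Nnm high 48 h cells (0.0442), where it had missed without the block. VIM rose by 0.31 at Nnm high 48 h (adjusted p = 0.0271). CDH1 fell by 0.94 there (adjusted p = 0.0431), so that 4 of 9 genes were called with the block, against 27.4% of all genes. FN1 differed by 0.05 (adjusted p = 0.753) and EPCAM by -0.09 (adjusted p = 0.639).

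ZEB1 varied with the replicate number under Nnm. At Nnm high 24 h it stood at 9.14, 7.64 and 8.94, against 7.46, 7.53 and 7.75 in vehicle cells, so that replicate 2 lay at the level of the vehicle. CDH1 at Nnm high 48 h stood at 5.85, 7.31 and 6.70, against 7.26, 7.58 and 7.84 in vehicle cells, and number 2 was again the closest to its vehicle. Without Nnm high 24 h replicate 2, ZEB1 passed without a block at 1.46 (adjusted p = 0.00857). Other ZEB1 probe sets overlapped between Nnm high 48 h cells and vehicle cells. Probe set 210875_s_at stood at 6.73, 5.55 and 7.11, against 4.94, 5.50 and 5.96. Probe set 212758_s_at stood at 6.23, 5.89 and 6.45, against 5.49, 5.48 and 6.20. Both also overlapped at Nnm low 48 h.

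CDH6 behaved differently between numbers and between its probe sets under Nnm. At Nnm high 24 h it stood at 10.38, 13.47 and 10.25, against 12.80, 12.89 and 12.50 in vehicle cells, so that 2 arrays lay below the vehicle and replicate 2 above it. The difference was -1.36 ± 0.55 (adjusted p = 0.0675), or -2.42 (adjusted p = 0.000194) without replicate 2 of the treated group. With the block the value passed (adjusted p = 0.0226). At Nnm low 48 h CDH6 stood at 13.95, 13.63 and 13.64, against 12.32, 12.54 and 12.20 in vehicle cells, without overlap. That difference of 1.39 passed with the block (adjusted p = 0.0435) but not without it (adjusted p = 0.138). As the mean of all its probe sets CDH6 differed by 0.56 there (adjusted p = 0.561).

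Other CDH6 probe sets gave another picture at Nnm high 48 h. Probe set 214803_at stood at 7.50, 11.87 and 8.64 in treated cells, against 12.14, 11.85 and 11.29 in vehicle cells. Tested as its own probe set over 20960, it fell by 2.42 (adjusted p = 0.027, or 0.00255 with the block), although its replicate 2, at 11.87, lay inside the range of the vehicle arrays. Probe set 210601_at rose by 1.82 at Nnm low 48 h (adjusted p = 0.0376, or 0.00762 with the block). In the same treatment 214803_at differed by -1.39 (adjusted p = 0.324). Which part of the transcript each probe set reads was not analysed here.

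**Figure D4:**
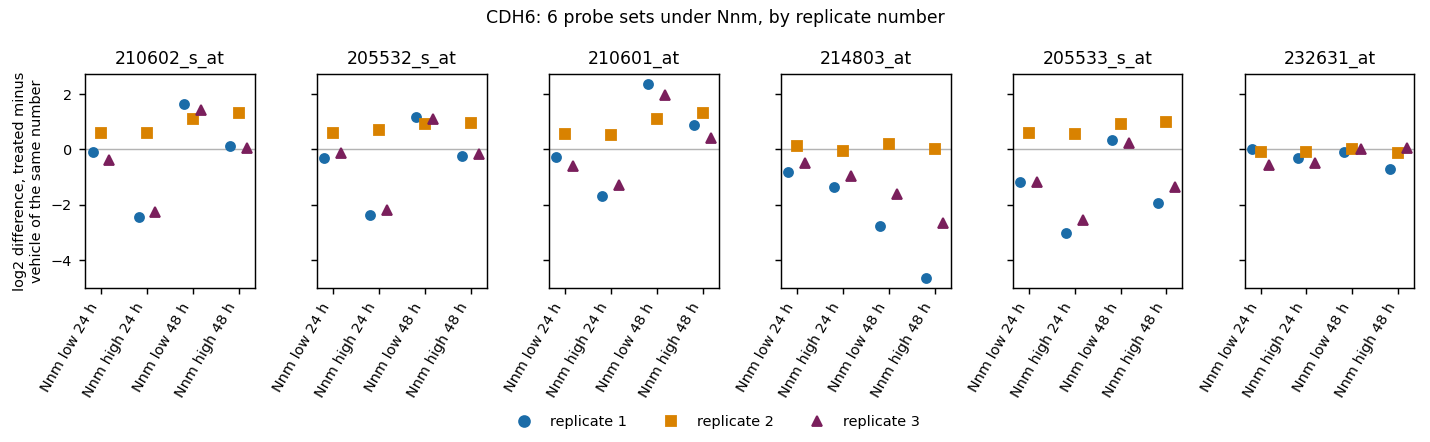
Log2 difference between each Nnm array and the vehicle array of the same replicate number, for the 6 CDH6 probe sets and 4 Nnm treatments. Replicate 2 lies between -0.14 and 1.31 throughout, and 214803_at falls to -4.64 in replicate 1 of Nnm high 48 h while 210602_s_at does not.

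In vehicle cells compared over time, 0 of 27 tests passed, with 3 at an unadjusted p under 0.05. Limma called 13.7%, 19.8% and 0% of all genes in the CsA, the Fk and Ra, and the Nnm set. At an unadjusted p under 0.05 it gave 3159, 3699 and 664 of the 11356 genes. In the Fk and Ra set at 48 h against 12 h, 6 of the 9 genes did not overlap between times, against 47.7% of all genes, and 0 of 9 were called, against 19.8% of all genes, with 2 at an unadjusted p under 0.05 by limma. CDH1 stood at 8.41, 7.54 and 6.50 in vehicle cells at 48 h, against 6.08, 6.19 and 5.69 at 12 h, a difference of 1.50 ± 1.11 (adjusted p = 0.372). CDH2 stood at 8.96, 9.53 and 9.78 at 48 h, against 10.00, 9.83 and 10.38 at 12 h, a difference of -0.65 ± 0.28 (adjusted p = 0.0971). CDH16, EPCAM and FN1 were also higher at 48 h and VIM lower, without overlap.

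The CsA vehicle cells at 48 h against 12 h gave 0 calls of 9, against 13.7% of all genes, with 0 at an unadjusted p under 0.05. With the replicate number as a block CDH1 was the 1 call of 9 genes, at 1.05 (adjusted p = 0.0274), against 24.1% of all genes. CDH1 stood at 8.99, 8.75 and 4.0 at 48 h, against 7.76, 7.92 and 2.94 at 12 h, so that each number was higher at 48 h. The Nnm vehicle cells at 48 h against 24 h gave 0 calls of 9, against 0% of all genes, with 1 at an unadjusted p under 0.05. That gene was VIM, at 13.97, 13.75 and 14.02 at 48 h, against 14.29, 14.11 and 14.38 at 24 h.

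**Figure D5:**
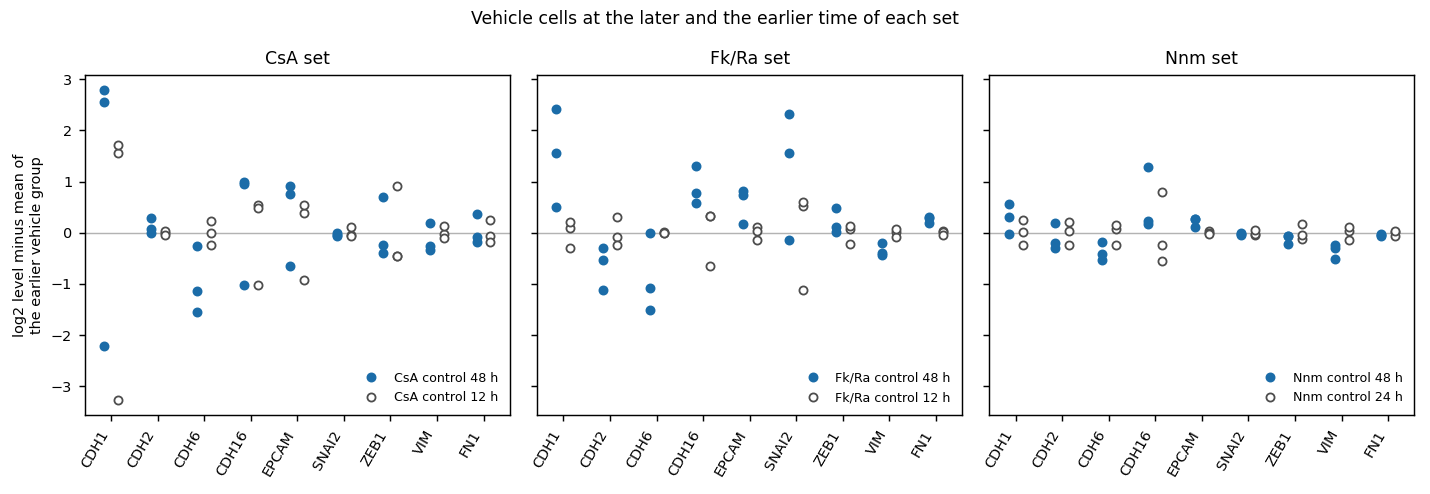
Log2 level of each gene in vehicle arrays minus the mean of the earlier vehicle group of its set, with the later time (filled) left of the earlier (open). CDH1 at 48 h lies above 12 h in every array of the Fk and Ra set, and CDH2 and VIM lie below.

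The other genes of adhesion and epithelial-mesenchymal regulation were taken as 7 lists, 74 of whose 103 genes were tested. In Ra 48 h cells 6 of 15 tight junction and desmosome genes fell and none rose, where 15.6% of all genes fell and 2.97% rose, and their median difference was -0.52, against -0.18 over all genes. The balance of calls over all genes, 337 higher and 1769 lower, became 1028 and 903 with arrays centred on the genes tested. The lists were fitted only without centring and with Ra 48 h replicate 2 kept. Occludin, OCLN, a tight junction strand protein, fell by 1.68 (adjusted p = 0.00234), to 8.09 in Ra 48 h cells against 9.77 in vehicle cells. MARVELD2, a protein of tricellular junctions, fell by 0.90, and the desmosomal cadherin DSC2 fell by 0.66. Of 16 mesenchymal and matrix genes 4 fell, against the same 15.6% of all genes, and the list's median was 0.23. The crosslinking enzyme LOX fell by 2.09 and the collagen chain COL1A1 fell by 1.04. SOX9, a transcription factor of kidney injury and repair, rose by 2.33 (adjusted p = 0.0387) and SMAD3, which carries TGF-beta signals, by 1.63 (adjusted p = 0.03). SMAD2 of the same pathway list fell by 0.64 (limma, adjusted p = 0.00467), so that 1 of its 12 genes rose and 1 fell. SOX9 was the 1 call among 6 other transition factors. VCL, which ties cadherin complexes to actin, rose by 0.89. Limma called 0 of 12 keratin and other epithelial genes, with 1 at an unadjusted p under 0.05, and 0 of 4 other cadherins, with 0.

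In Nnm high 24 h cells 3 of 15 junction genes fell and 0 rose, where 12.5% of all genes fell and 10.5% rose, so the share called lay close to the 23.1% of all genes. Among the 3, CLDN2, the leaky claudin of the proximal tubule, fell by 3.52, the junction protein CGN fell by 1.95 and CLDN1 fell by 1.00. At 48 h of the high dose 2 of 15 fell and 1 rose, where 7.88% of all genes fell and 8.89% rose. CLDN2 fell by 3.97 (adjusted p = 0.0225) and CGN fell by 2.03. DSC3 rose by 1.05, to 4.003 in treated cells, against 2.96 in vehicle cells, a level under log2 4. Thrombospondin 1, THBS1, fell by 3.94 at Nnm low 24 h, fell by 2.58 at Nnm high 24 h and fell by 3.03 at Nnm high 48 h. SNAI1, the relative of SNAI2, rose by 1.63 at Nnm high 24 h (adjusted p = 0.0115), with a vehicle level of 3.39, under log2 4. SMAD4 rose by 0.72 at Nnm high 24 h and by 0.60 at Nnm high 48 h. Of the 12 TGF-beta genes 3 rose and 0 fell at Nnm high 24 h, where 10.5% of all genes rose and 12.5% fell. At Nnm high 48 h 1 rose and 0 fell. With the replicate block 3 rose and 2 fell at Nnm high 24 h, where 15.6% of all genes rose and 18.1% fell. Those that fell were INHBA (-2.335) and TGFB2 (-1.13). At Nnm high 48 h 3 rose and 0 fell with the block, where 14.4% of all genes rose. With the replicate number as a block the epithelial list gave 6 of 12 lower at Nnm high 24 h, against 18.1% of all genes lower in that fit, and 2 of 12 lower at 48 h, against 12.9%. Here limma without it had called 0 at each time, with 3 at 24 h and 1 at 48 h at an unadjusted p under 0.05. With it the mucin MUC1 fell by 1.26 at Nnm high 24 h and fell by 1.89 at Nnm high 48 h (adjusted p = 8.16e-05), and CD24, a surface glycoprotein, fell by 1.50 at Nnm high 24 h. P-cadherin, CDH3, fell by 0.99 at Nnm high 24 h with the block. In CsA 48 h cells 2 of 4 other cadherins fell with the block, CDH11 by 2.09 and CDH24 by 0.50, where 2.93% of all genes fell. There were 0 without it, where 3 of 4 had an unadjusted p under 0.05 by limma. The matrix list at Nnm high 48 h gave 3 of 16 higher and 3 lower with the block, where 14.4% of all genes were higher and 12.9% lower. Without the block 1 was higher and 1 lower, where 8.89% of all genes were higher and 7.88% lower. Called with the block were CD44, a hyaluronan receptor, which rose by 1.37, and S100A4, a calcium-binding protein, which fell by 1.26. TWIST1 rose by 0.69 at Nnm high 24 h and by 0.86 at Nnm high 48 h in that fit.

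In vehicle cells at the later time 4 of 15 junction genes rose in the Fk and Ra set, where 10.1% of all genes rose and 19.8% were called. In the CsA set 3 of 15 rose, where 6.12% of all genes rose and 13.7% were called. In the Nnm set limma called 0 of 15, with 1 at an unadjusted p under 0.05 and 0% of all genes called. The list's median was 0.24 in the Fk and Ra set, 0.12 in the CsA set and -0.02 in the Nnm set. TJP3, OCLN and CLDN3 were called in both the Fk and Ra set and the CsA set. TJP3 rose by 1.63 in the Fk and Ra set and by 1.95 in the CsA set, OCLN by 1.08 in the Fk and Ra set and by 1.09 in the CsA set, and CLDN3 by 0.80 in the Fk and Ra set and by 0.86 in the CsA set. VCL fell by 1.31 in the Fk and Ra set and by 1.23 in the CsA set. SOX9 fell by 3.89 in the Fk and Ra set, to 4.81 at 48 h against 8.70 at 12 h, and TWIST1, another transition factor, by 1.05.

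Across the 16 group means, each centred on its set, the genes most like a member were described by Pearson's r, which shares the same arrays and was not tested. CDH1 was most like CCDC90B (0.97) and ARFGAP3 (0.97). CDH6 was most like FLRT3 (0.96), which encodes a membrane protein with leucine-rich repeats, and CDH2 like FAIM (0.94). SNAI2 was most like CCDC43 (0.95), ZEB1 like ATAD2B (0.97) and VIM like ADAM19 (0.94). EPCAM was most like ACTMAP (0.93), CDH16 like TMT1A (0.93) and FN1 like SEL1L3 (0.94).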

How the data were processed

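Per the submitters' processing notes the authors made the deposited log2 values with GCRMA, whose version is not given, and they were used without further normalization. The deposited log2 table was read for 48 arrays. Of its 54675 probe sets, the platform annotation gave 41091 a single symbol, 20960 of these exceeded log2 4 in at least 3 arrays, and the probe set of highest mean represented each of 11356 genes. A linear model in limma 3.58.1 (R 4.3.3; lmFit, then eBayes) took 1 mean per group over all arrays, 26 contrasts were tested two-sided, and p-values were adjusted by Benjamini-Hochberg over all genes within a contrast. The tests were tried on simulated data with independent arrays and 1 spread per gene. These held neither the pairing by replicate number nor a difference of spread between sets. The genes and lists were chosen with earlier results of these data known. Named genes of a list were its called genes in treatment and vehicle-time comparisons, at most 3 of the largest by comparison, with and without the replicate block, and for each of the 9 genes the most similar genes by Pearson's r.

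Groups share replicate numbers in the labels. Deviations of same-numbered arrays from their group means correlated above 0.1 in all 18 pairs of the CsA set (mean 0.54) and all 45 of the Nnm set (mean 0.45), so these numbers were taken to pair the arrays. The main fit left this pairing out, and the fit with the block is given as an alternative. In the Fk and Ra set 19 of 45 did (mean 0.10), so they were not. Alternatives were other centring, quantile normalization, filters on low values, all probe sets, subsets of arrays and arrays left out. The platform sequences of the probes were not used here.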

Additional observations from a re-analysis of the deposited data

Results flagged for a closer look

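SNAI2 differed between Fk and Ra cells at 48 h by 2.53 on the log2 scale, a test of the difference itself. The effect of CsA on CDH6 at 48 h minus that of Ra was -3.16, also tested as a difference. By its probe set of highest mean, CDH2 moved in opposite directions between compounds at 48 h without overlap of arrays. Against its own vehicle it differed by -0.51 with CsA, by 0.69 with the low dose of Nnm and by 0.82 with the high dose. Only the high dose of Nnm was called, and the difference between compounds was not tested. The other CDH2 probe set, 203441_s_at, overlapped with CsA, at 7.73, 7.69 and 7.96, against 7.81, 7.76 and 8.04 in vehicle cells. It also overlapped with the low dose of Nnm, but not with the high dose. CDH1 probe set 201130_s_at, which failed the low filter and was used in no comparison, reached 5.45 in CsA 48 h replicate 2, where its values in the vehicle cells lay near the low level.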

How the results depend on the processing

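Results were recomputed with arrays centred on their median or on the median of the genes tested, after quantile normalization, with no low filter or one at log2 5, for each probe set or their mean, with the replicate number as a block, in each set or only the groups compared, and with arrays left out. No result changed direction past a call. The treatment calls, 3 of 90, became 13 with the replicate block, where between 0.00881% and 33.7% of all genes were called by comparison. They became 1 with the groups of a comparison alone, and lay between 1 and 6 when an array was left out. There were 6 without Nnm high 24 h replicate 2 and 1 without Fk/Ra vehicle 48 h replicate 2. Without replicate 1 of every set there was 1. The vehicle-time calls, 0, became 6 with the block, where between 0.704% and 29.9% of all genes were called. These calls became 1 with centring on the genes tested, where between 0.00881% and 23.1% of all genes were called. They were 2 without replicate 3 of every set, and 0 to 1 with an array left out. The calls of dose, compound and time differences, 2, became 8 with the block, where between 0% and 27% of all genes were called. They became 0 with the groups alone, 1 without replicate 1, 4 without replicate 3, and 2 to 5 with an array left out. The shares of all genes called with the groups alone or with arrays left out are not given here. In the Fk and Ra set, whose numbers were not taken to pair arrays, the block added calls for CDH1 (-1.78) and VIM (0.29) in Ra 48 h cells. In that comparison 28.5% of all genes were called with the block. The vehicle-time calls of CDH1, CDH2, EPCAM, FN1 and VIM with the block also came from this set, where 29.9% of all genes were called. All 8 calls of differences with the block involved Ra. CDH2 in Nnm high 48 h cells kept 0.82 but missed with median centring (adjusted p = 0.0523), no filter (0.0659) and the groups alone (0.0867), and ran from 0.63 to 1.00 with an array left out, missing without Nnm high replicate 1 (0.63) or 3 (0.84) or vehicle replicate 2 (0.77) or 3 (0.72). It was 0.78 without replicate 1 and 0.73 without replicate 3 of every set. CDH6 in Ra 48 h cells kept 1.91 but missed with the groups alone (adjusted p = 0.273), ran up to 2.34 without vehicle replicate 3, and was 1.59 without vehicle replicate 1, 1.80 without vehicle replicate 2 and 1.44 without replicate 1 of every set. The CDH6 difference between CsA and Ra effects kept -3.16 but missed with the groups alone (0.106), ran between -3.59 and -2.69 with an array left out, and was -3.11 without replicate 1. SNAI2 in Ra 48 h cells kept -2.09 but missed in its own set (0.12) and with the groups alone (0.296), and was -1.55 without vehicle replicate 2, -1.58 without Ra replicate 2, and, of every set, -2.96 without replicate 1, -1.04 without replicate 2 and -2.27 without replicate 3. SNAI2 between Fk and Ra kept 2.53 but missed in its own set (0.0755) and with the groups alone (0.302), and was 3.26 without replicate 1, 2.09 without replicate 2 and 2.25 without replicate 3. The cause of these changes was not tested. Fits with fewer groups or arrays have fewer degrees of freedom. A difference of effects across sets could not be fitted within 1 set.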
